A study of Homo sapiens with 6 samples.

Results

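The RAB small GTPases are the largest branch of the RAS superfamily, and 63 of the 35052 genes summed from the deposited transcript tables belong to them. Members were chosen by symbol, RAB followed by a number with or without a letter, and by the annotation as protein coding in GENCODE 29. A further 8 genes with a matching symbol were annotated as processed pseudogenes and were left out. No expression value entered that choice, but the family was taken up with results of this comparison known, so its counts are given as descriptions, without a test of the family. Of the 63 members, 51 had enough reads to be tested among 13131 genes and 12 did not.

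The RNA was taken from EoL-1, a line of human cells that was derived from eosinophilic leukaemia and serves as an eosinophil model. The 2 groups are wild-type EoL-1 cells (3 libraries) and EoL-1 cells in which ATF3, a bZIP transcription factor that cells induce under stress, was knocked out with CRISPR/Cas9 (3 libraries). Both were grown in the same serum-supplemented medium, and the labels name no further agent or time point. The design text speaks of a knockdown, and the labels do not say whether the edited cells were 1 clone or a pool, or whether replicates were separate cultures, so the p-values measure the spread between these libraries, which may be technical.

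The libraries held 26766103 to 30117281 estimated reads. ATF3 itself stood at 20.7 ± 3.88 CPM (CPM, counts scaled to the size of the library; SD, n = 3) in wild-type cells and 6.16 ± 1.96 CPM in the edited cells, with every knockout library below every wild-type library (log2 change of -1.75 with SE 0.25, edgeR adjusted p = 0.0098). With only the transcripts whose version matches the annotation ATF3 gave -0.81 (adjusted p = 0.112). The label of the cells as eosinophils rests on few markers here. Of 13 eosinophil markers 4 could be tested, 3 of these (RNASE2, RNASE3 and ADGRE1) were higher in knockout, and CLC, GATA1, IL5RA and PRG3 were at 0 in all 6 libraries. The markers summed to between 37.6 and 52.8 CPM per wild-type library and to between 118 and 188 CPM per knockout library. Neutrophil markers (12 listed, 3 of 6 tested higher, ELANE, AZU1, PRTN3 and LTF at 0) summed to between 86.4 and 180 CPM per wild-type library and to between 342.5 and 627 CPM per knockout library, and monocyte markers (10 listed, 2 of 6 tested higher, FCGR3A among those at 0) to between 184 and 656 CPM and to between 678 and 1351 CPM. Mast cell and basophil markers summed to between 2.11 and 7.80 CPM and to between 9.65 and 43.1 CPM, with CPA3 and HDC at 0. None of the 3 tested was called. Most of the knockout sum was GATA2, whose groups overlapped (1.77, 0.246 and 7.22 CPM, then 6.65, 17.5 and 42.7 CPM, edgeR adjusted p = 0.0941). Megakaryocyte and erythroid markers summed to between 0.433 and 0.738 CPM per wild-type library and to between 0.96 and 2.00 CPM per knockout library. The 1 tested, ITGA2B, was called higher (1.71, edgeR adjusted p = 0.0221). Lymphocyte markers overlapped between the groups. The part of these shifts in the RAB results was not tested. On the first principal component of all genes (42.1% of the variance), wild-type replicates 1, 2 and 3 scored -37.9, -13.5 and -34.9, so the second was the closest to the edited cells.

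RAB proteins switch between a GDP-bound form in the cytosol and a GTP-bound form on a membrane, where they recruit effectors that bud, move, tether and fuse vesicles. Guanine nucleotide exchange factors (GEFs) switch them on, GTPase-activating proteins (GAPs) switch them off, and each compartment carries its own set. Leukocytes that store mediators in granules, eosinophils among them, are known to use RAB27 and RAB3 proteins in granule release. Membrane attachment depends on geranylgeranyl lipids, which RAB geranylgeranyl transferase adds to cysteines at the very end of the protein.

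That lipid site can be read in the last 15 coding bases before the stop codon, which are shown for the called members, for paralogs of several of them and for RAB27A, the most abundant granule member, because they show which paralogs share an end. Cysteine codons (TGT or TGC) are in capitals, 5′ to 3′, from the most read GENCODE 29 transcript that is protein coding and has an annotated stop codon.
RAB26: tccTGCTGCcgccct
RAB27A: ggggcaTGTggcTGT
RAB5A: cagTGTTGTagtaac
RAB5B: cagTGTTGTagcaac
RAB5C: cagTGCTGCagcaac
RAB7A: gaaagcTGCagtTGC
RAB7B: aggagcagaTGCTGC
RAB29: agctggtccTGCTGC
RAB20: tctgggTGTTGTgcc
RAB1A: ggtggaggtTGCTGC
RAB1B: ggcggtggcTGTTGC
RAB2B: aactctggcTGCTGC
RAB8A: cgaTGTgttcttctg
RAB8B: cgtTGCtcgctactt
RAB23: agcTGTagcataccc
RAB5A, RAB5B and RAB5C share a cysteine pair ahead of the last codons, while RAB7A ends with a cysteine, another residue and a cysteine, and RAB7B with a cysteine pair. RAB8A, RAB8B and RAB23 have a cysteine at the fourth codon from the end. Over the 63 members, each counted once, 20 ended with cysteine codons around another codon and 15 with a cysteine pair. A further 15 had their last cysteine codon at the fourth codon from the end, alone or just after another. In 8 a pair ended nearer to the stop codon than that, but before the last codon. In 1 (RAB41) a cysteine codon stood elsewhere. None was found in the transcript used for 4 (RAB17, RAB30, RAB6C and RAB6D). That of RAB30 is a form of 164 codons, and that of RAB17 is a form of 53 codons without reads. The transcripts used for RAB13, RAB15, RAB19, RAB3C, RAB41 and RAB9B had no reads either.

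The upstream sequences of RAB5B and RAB5A are shown because these paralogs moved in opposite directions. They come from RefSeq promoters of GRCh38.p14, on the plus strand, chr12:55973699-55973912 for RAB5B and chr3:19946847-19947078 for RAB5A, and end before the first base of either gene in GENCODE 29. Capitals mark a match to 1 of 4 motifs searched on both strands.
RAB5B: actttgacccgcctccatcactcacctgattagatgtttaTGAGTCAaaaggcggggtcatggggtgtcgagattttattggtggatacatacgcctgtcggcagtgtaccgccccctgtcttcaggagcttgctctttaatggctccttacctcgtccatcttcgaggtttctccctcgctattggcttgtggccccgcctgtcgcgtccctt
RAB5A: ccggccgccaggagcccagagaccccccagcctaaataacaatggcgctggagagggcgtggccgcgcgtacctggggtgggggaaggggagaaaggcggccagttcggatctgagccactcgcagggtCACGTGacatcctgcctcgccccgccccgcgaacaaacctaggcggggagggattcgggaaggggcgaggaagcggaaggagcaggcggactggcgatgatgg
RAB5B holds an AP-1 motif (TGANTCA), the site bound by FOS and JUN dimers, that begins 210 bases before the RefSeq start, and RAB5A an E-box (CACGTG), a site of MYC, MAX and USF factors, that begins 121 bases before it. In the 250 bases before the start, the AP-1 motif was found in 3 of 50 RAB promoters (RAB27B, RAB3B and RAB5B) and in 6.57% of all 35116 promoters of that length. E-boxes were found in 5 of 50 (RAB21, RAB24, RAB31, RAB4A and RAB5A), against 6.35% of all. The cyclic AMP response element (TGACGTCA), the palindrome of the ATF and CREB factors, occurred in 1 of 50 (RAB25) against 1.65%, and the C/EBP-ATF response element (TGATGNAA) in 1 of 50 (RAB28) against 3.14%. No member with a promoter sequence apart from RAB5B and RAB5A was both called and matched. RAB1A, RAB20 and RAB26 were among the 13 members without an entry in the table. A match is a description of letters and shows no binding.

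Levels per transcript length, in TPM, spanned from 0 to 250.6 on average over the 6 libraries. The plot of RAB gene levels shows every library. Only 4 members averaged 100 TPM or more and 30 averaged 10 TPM or more, and the 5 most abundant held 43.4% and the 10 most abundant 63.6% of the RAB total. RAB8A, which acts in exocytosis at the plasma membrane and the cilium, led with 246.5, 237 and 232.5 TPM in wild type and 261.5, 305 and 221 TPM in knockout, so its groups overlap on this scale. RAB11A of recycling endosomes (131, 135 and 133 TPM, then 147.5, 147 and 161 TPM) and RAB7A, which drives fusion with lysosomes (124, 124 and 122 TPM, then 149, 133 and 132 TPM), came next with every knockout library above every wild-type library. In CPM both overlapped between the groups (log2 fold changes of 0.01 and 0.06, edgeR adjusted p = 0.941 and 0.577). CPM include a scaling factor per library (0.976 to 0.99 in wild type, 1.008 to 1.032 in knockout), and the deposited TPM do not. RAB5C of early endosomes stood at 83.8, 106 and 100.1 TPM in wild type and 121, 113 and 109.7 TPM in knockout. RAB1B, which works between the endoplasmic reticulum and the Golgi, followed with 79.2, 90.5 and 80.9 TPM and then 100.1, 99.7 and 96.4 TPM. RAB27A, the docking factor of secretory granules, was the most abundant granule member at 87.6, 69.4 and 76.4 TPM in wild type and 62.4, 86.6 and 54.9 TPM in knockout. The knockout ranges of RAB11A and RAB7A overlap, as do the wild-type ranges of RAB5C and RAB1B. The library ranges of RAB27A, RAB2A and RAB10 overlap too, so the order of these neighbours is not set by the data.

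**Figure D1:**
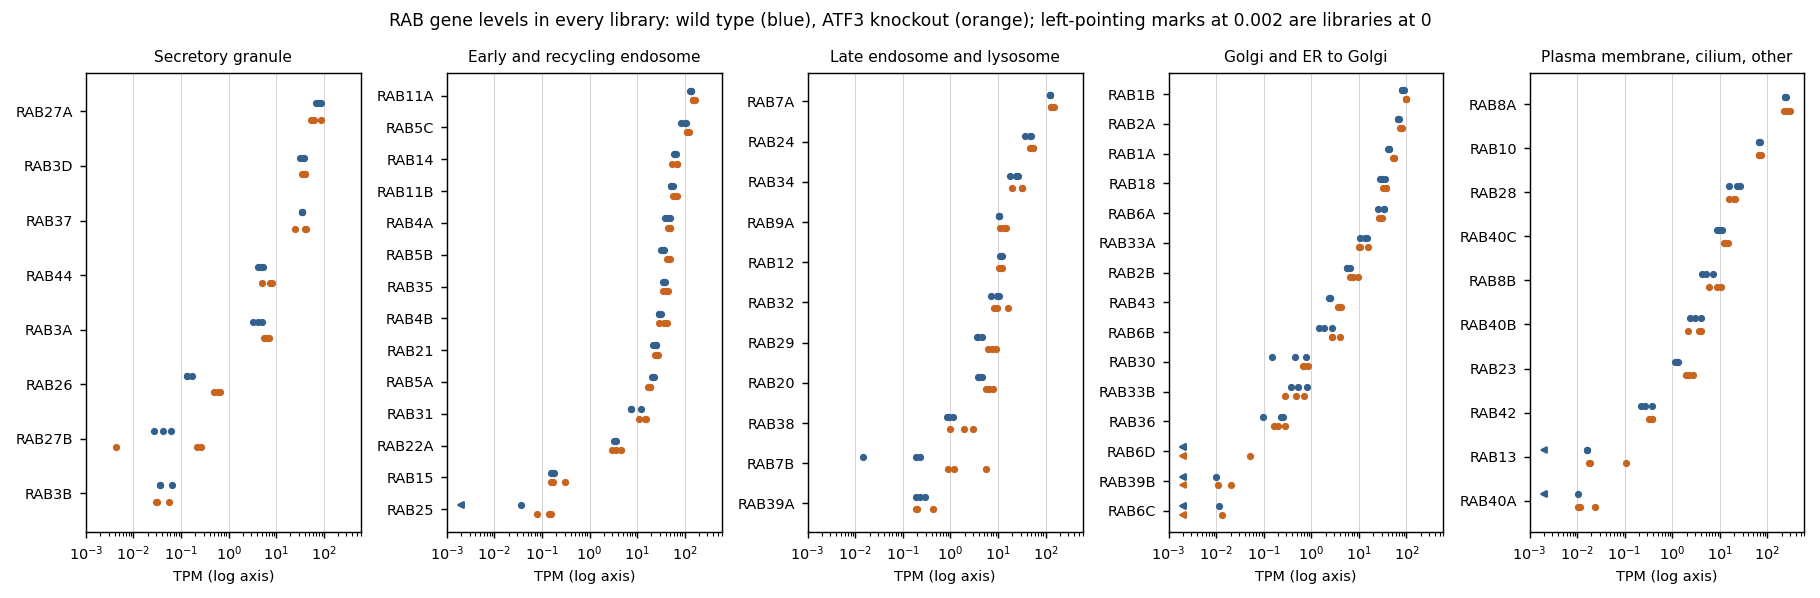
TPM of each RAB gene on a log axis, in 5 panels by main compartment, with 1 point per library (wild type blue, knockout orange) and libraries at 0 drawn as left-pointing marks. RAB8A reaches 305 TPM, while RAB26, RAB7B and RAB3B lie below 1 TPM in every wild-type library.

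The 12 members below the read filter included the granule RABs RAB27B and RAB3C and the epithelial RAB25, RAB17 and RAB13. RAB19, RAB41, RAB17, RAB9B and RAB3C had no read in any library. RAB27B, the paralog of RAB27A, had 6, 14 and 9 reads in the wild-type libraries and 17, 7 and 1 in knockout. The others were RAB25, which reached 4 reads, RAB6D with 4 in 1 library, RAB13 with up to 3, and RAB39B, RAB40A and RAB6C with at most 2. RAB13 overlaps ENSG00000285641 over 682 exon bases of the same strand, which held 805 reads against its 7, so reads of RAB13 may have been assigned there.

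The knockout libraries held more RAB transcripts in sum. All RAB genes together summed to 1568, 1579 and 1557 TPM in wild type and to 1745, 1817 and 1700 TPM in knockout, a ratio of means of 1.12, and in CPM to 2630 ± 10.5 and 2826 ± 52.2 (SD, n = 3), a ratio of 1.07. On either scale each knockout library lay above each wild-type library. The TPM sums lack the scaling factor that CPM include, and its part in the larger TPM ratio was not tested. The late endosome and lysosome members had the largest ratio of sums on either scale, with 231 ± 8.65 and 273 ± 3.15 TPM. Golgi members went from 281 ± 5.53 to 323 ± 1.43 TPM and early and recycling endosome members from 550.5 ± 27.5 to 625 ± 6.73 TPM, both without overlap. Plasma membrane and cilium members overlapped in TPM (348 ± 10.7 and 377.5 ± 51.1) and did not in CPM (599 ± 7.91 and 659 ± 28.0). Granule members overlapped on either scale, with 157 ± 11.0 TPM in wild type and 156 ± 3.68 TPM in knockout. In bulk RNA a sum of this kind cannot tell more cells of a type from more RNA per cell.

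Gene by gene, RAB5B, RAB26, RAB29, RAB7B, RAB20, RAB23, RAB8B, RAB1A and RAB2B rose in knockout and RAB5A fell. These 10 of the 51 tested members (19.6%) passed an edgeR adjusted p of 0.05, beside 21.1% of all 13131 genes tested. Higher were 9 members (17.6%), beside 11.4% of all genes, and lower was 1 (1.96%), beside 9.72%. Scaled by library size alone, 11 RAB genes were higher and 0 lower, and over all genes 64.5% of the calls were higher in place of 53.9%. Among the called members, RAB7B and RAB26 had fitted changes over 2-fold. Both were low in wild type and reached the read filter only with the help of the knockout libraries, where they are high, so their place among the calls supports nothing about the family. The median log2 fold change of the tested members was 0.18, beside 0.01 over all genes. Above 0 lay 38 of the 51, beside 6655 of all 13131 genes. In 17 of the 51 (33.3%) the libraries of the groups did not overlap in CPM, beside 43.5% of all genes. Of these 15 were higher and 2 lower in knockout, where 22.2% of all genes stood apart as higher and 21.4% as lower. Without wild-type replicate 1 no gene in the whole table passed (the smallest edgeR adjusted p was 0.0503, and 13 RAB genes and 3496 genes in all had an unadjusted p under 0.05), so all 10 calls were lost in that fit. The values themselves moved little there for most members, as for RAB5B (0.59 in place of 0.60) and RAB29 (0.73 in place of 0.72). Without wild-type replicate 3, 2 RAB genes were called.

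**Figure D2:**
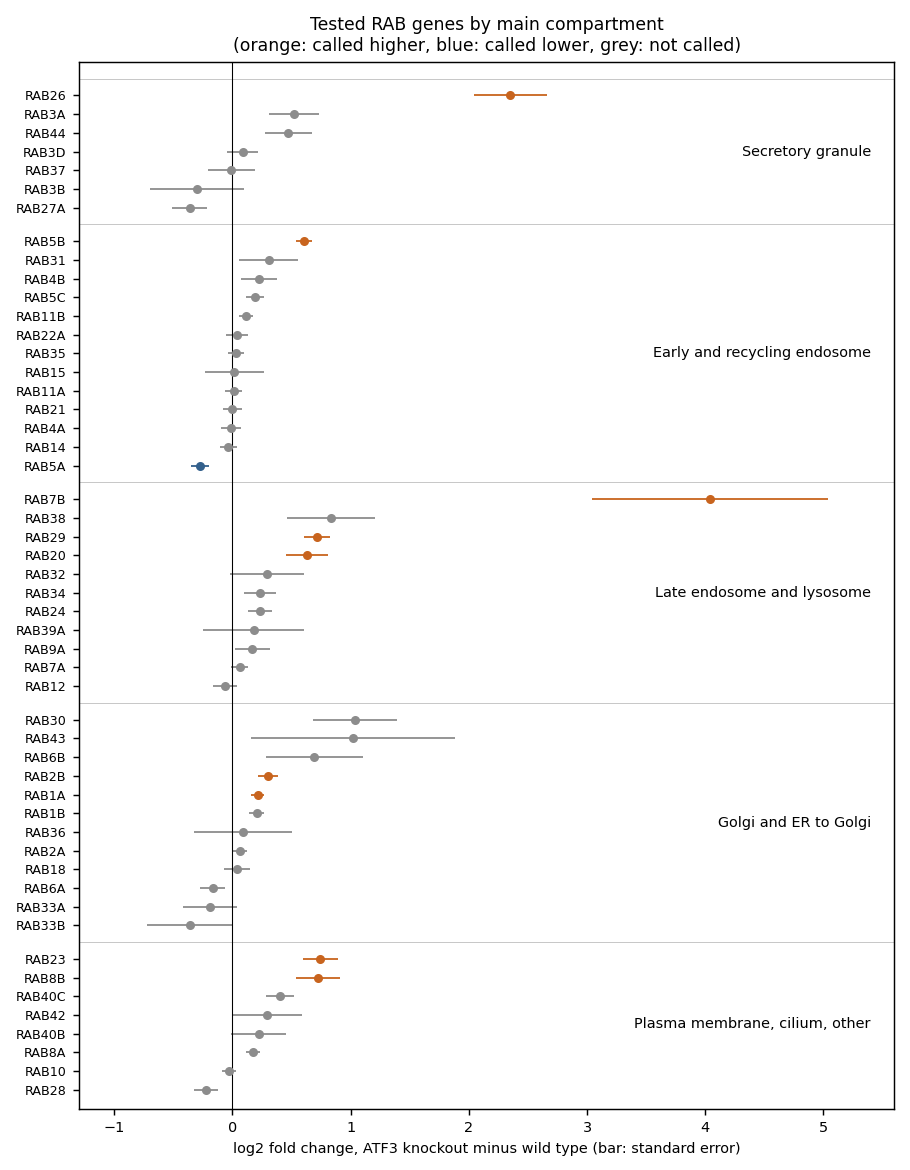
Log2 fold change, knockout minus wild type, of the 51 tested RAB genes grouped by main compartment, with bars for the standard error of the edgeR fit. RAB7B (4.04) and RAB26 (2.35) stand far to the right, RAB5A (-0.27) is the called member to the left of 0.

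Among the 9 secretory granule RABs, RAB26 rose and the other 6 tested members did not pass (14.3% called, beside 21.1% of all genes). RAB26, a vesicle RAB of exocrine and neuronal cells (ENSG00000167964.12, chromosome 16, 2140803 to 2154165, plus strand), had 4, 6 and 4 reads in the wild-type libraries and 25, 22 and 25 in knockout. Every knockout library was above every wild-type library, at 0.167 ± 0.0380 and 0.873 ± 0.0819 CPM (SD, n = 3; log2 change of 2.35 with SE 0.31, edgeR adjusted p = 0.0087). RAB26 stayed a trace transcript, and it met the read filter only through the knockout libraries, so that it had to differ to be tested. In the fit without that filter RAB26 gave 2.35 with an adjusted p of 0.0079. Its reads in knockout replicates 1 and 2 lay mainly on the protein-coding ENST00000210187.10 (23.2 and 19.3), while in knockout replicate 3 they were assigned to the retained-intron transcripts ENST00000562735.5 (18.3) and ENST00000564426.5 (6.7). That split among overlapping transcripts is uncertain. RAB26 kept its call in every alternative that tested it except the fit without wild-type replicate 1 (2.26, adjusted p = 0.0524), and a minimum of 50 reads in 3 libraries left it untested.

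None of the other granule RABs passed the test, and of these only RAB3A had groups that did not overlap. RAB27A stood at 151, 122 and 145 CPM in wild type and 98.4, 133 and 93.8 CPM in knockout, and knockout replicate 2 alone lay inside the wild-type range (log2 change of -0.36 with SE 0.15, edgeR adjusted p = 0.127). Leaving that library out gave -0.54 (adjusted p = 0.0353). RAB27A missed the threshold when any other library was left out (-0.45 to -0.28, adjusted p 0.104 to 0.324). RAB27A shares 154 exon bases with PIGB on the opposite strand, and PIGB was called higher (0.45, adjusted p = 0.0325). RAB3A, a regulator of vesicle fusion, had 4.76, 7.66 and 4.96 CPM in wild type and 8.88, 7.71 and 8.29 CPM in knockout (0.52, SE 0.21, adjusted p = 0.124), and wild-type replicate 2 lay just under the lowest knockout library. Without wild-type replicate 2 RAB3A gave 0.77 with an adjusted p of 0.0253, and without any other library it missed the threshold (adjusted p 0.167 to 0.324). RAB44, a large RAB known from mast cell granules, had 24.9, 19.7 and 23.0 CPM in wild type and 33.2, 22.3 and 38.4 CPM in knockout (0.47, adjusted p = 0.133). Without knockout replicate 2 its value was 0.67 with an adjusted p of 0.0333, and without any other library it missed the threshold (adjusted p 0.21 to 0.302). The log2 fold changes of RAB3D, RAB37 and RAB3B were 0.09, -0.01 and -0.30, with adjusted p-values of 0.667, 0.982 and 0.624. The summed eosinophil, neutrophil and monocyte markers given above were all higher in knockout, while summed granule RABs were not (387 ± 26.1 and 377 ± 33.7 CPM).

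Knockout replicates 2 and 3 lay at opposite ends in several of these genes. RAB37, a granule RAB of mast cells and macrophages, had 63.0, 62.7 and 61.5 CPM in wild type and 66.5, 42.1 and 77.4 CPM in knockout, a coefficient of variation of 1.31% against 29.1%. Its mean was nearly equal in the groups and its spread was not. The 43 members with at least 1 CPM on average were sorted by their lowest and highest knockout library. These were knockout replicates 2 and 3, in that order, for 11 members, among them RAB37, RAB3D, RAB44, RAB4B, RAB32 and RAB6B. The order was reversed for 6, among them RAB27A, RAB38 and RAB8B. The other orders held 5, 8, 5 and 8 members. Orders over all genes were not counted, so no pattern of the RAB genes is read from these numbers. Over these 43 members the median coefficient of variation was 6.38% in wild type and 10.2% in knockout, beside 6.80% and 9.58% over 11467 genes. It was larger in knockout for 58.1% of these members and for 63.7% of all genes.

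Early and recycling endosome RABs held the best separated rise and the only fall. Of the 13 tested, 15.4% were called, beside 21.1% of all genes. RAB5 proteins recruit EEA1 and the lipid kinase VPS34 to early endosomes and so allow them to fuse. RAB5B (ENSG00000111540.15, chromosome 12, 55973913 to 55996683, plus strand) had 77.2, 80.1 and 78.5 CPM in wild type and 114, 115 and 129.6 CPM in knockout. The wild-type libraries lay close together and all knockout libraries lay above them (log2 change of 0.60 with SE 0.07, edgeR adjusted p = 0.0081, 1.52-fold). RAB5A (ENSG00000144566.10, chromosome 3, 19947079 to 19985175, plus strand) had 46.7, 44.6 and 49.0 CPM in wild type and 41.2, 36.3 and 38.6 CPM in knockout. Every knockout library of RAB5A was below every wild-type library (-0.27, SE 0.08, adjusted p = 0.0443, 1.21-fold lower). RAB5C, the third paralog, had 120.0, 142 and 130 CPM in wild type and 154, 141 and 152 CPM in knockout, and its groups overlapped (0.19, SE 0.08, adjusted p = 0.126).

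Per transcript length, RAB5C supplied 63.0 ± 2.31% of RAB5 TPM in wild type and 63.8 ± 2.03% in knockout (SD, n = 3). The share of RAB5A went from 15.6, 12.8 and 14.4% to 10.4, 10.4 and 9.58%, without overlap. The share of RAB5B went from 23.4, 21.7 and 23.3% to 23.6, 26.5 and 28.2%, where knockout replicate 1 lay barely above wild type. The 3 paralogs together summed to 256 ± 11.4 CPM and then 307 ± 14.2 CPM. With the effective length offset, which follows shifts in the estimated mix of a gene's transcripts, the rise of RAB5B was 0.37 with an adjusted p of 0.062, and without wild-type replicate 1 it was 0.59 with 0.0507. The fall of RAB5A missed the threshold without any 1 of the 6 libraries (adjusted p 0.0568 to 0.155) and in 5 further alternatives, with the sign kept throughout (-0.40 to -0.23).

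**Figure D3:**
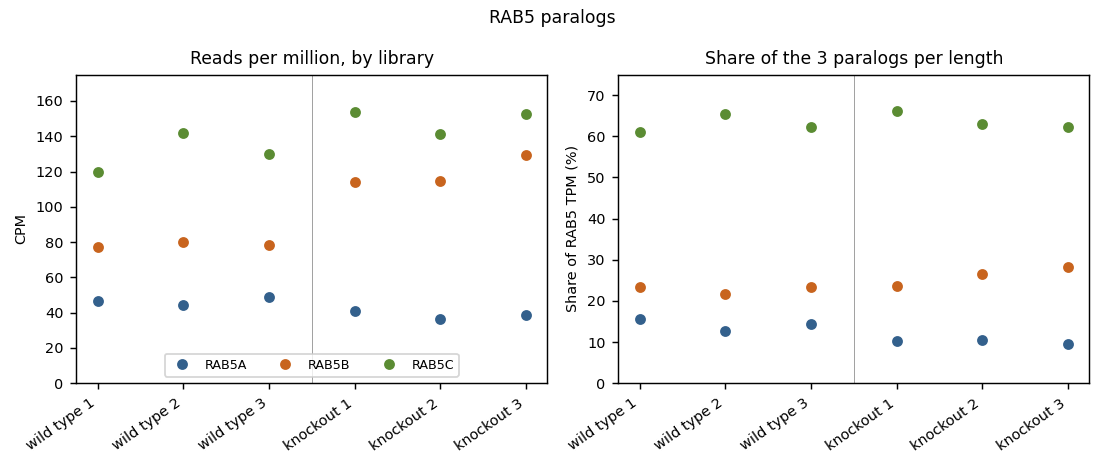
Left, CPM of RAB5A, RAB5B and RAB5C in each library, and right, their shares of summed RAB5 TPM in percent. RAB5B steps from under 81 CPM in all wild-type libraries to over 113 CPM in all knockout libraries, and RAB5A goes the other way on both axes.

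The remaining 11 tested members of this compartment did not pass. Their log2 fold changes ran from -0.03 for RAB14 to 0.31 for RAB31, and the median of all 13 tested was 0.03. RAB11B, a recycling RAB, stood apart at 79.2, 82.8 and 79.9 CPM in wild type and 83.4, 87.2 and 90.7 CPM in knockout, a narrow margin that did not pass (0.11, adjusted p = 0.224). RAB11A, RAB4A and RAB21, which recycle or sort receptors, lay within 0.02 of 0. RAB4B shares 1076 exon bases with the read-through gene RAB4B-EGLN2 and 1010 with MIA-RAB4B, which held 65 and 284 reads against its 5712.

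Among 11 tested late endosome and lysosome RABs, RAB29, RAB7B and RAB20 were higher and none was lower (27.3%, beside 21.1% of all genes). Of the 11, 10 had a log2 fold change above 0 (median 0.23), beside 6655 of all 13131 genes. RAB29, a RAB of the Golgi and stressed lysosomes that recruits the kinase LRRK2 (ENSG00000117280.12, chromosome 1, 205767986 to 205775460, minus strand), had 12.0, 12.3 and 11.0 CPM in wild type and 17.4, 19.0 and 21.7 CPM in knockout. The groups were well apart (log2 change of 0.72 with SE 0.11, edgeR adjusted p = 0.0112). RAB20, which acts in phagosome maturation (ENSG00000139832.4, chromosome 13, 110523066 to 110561733, minus strand), had 5.77, 5.59 and 6.89 CPM in wild type and 8.04, 8.84 and 11.4 CPM in knockout. Knockout replicate 3 was the highest of these (0.63, SE 0.18, adjusted p = 0.0463). RAB20 missed the threshold without any 1 of the 6 libraries (adjusted p 0.0601 to 0.156), with values from 0.46 to 0.73, and in 3 further alternatives. RAB29 missed the threshold when wild-type replicate 1 (0.73, adjusted p = 0.0602) was left out, or replicate 3 (0.67, adjusted p = 0.0544), and with only the transcripts whose version matches the annotation, where its value was 1.16 (adjusted p = 0.169).

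RAB7B, which works between late endosomes and the trans-Golgi network in monocytes and macrophages (ENSG00000276600.4, chromosome 1, 205976740 to 206003461, minus strand), had 1, 18 and 13 reads in the wild-type libraries and 56, 81 and 406 in knockout. In CPM these were 0.0360, 0.632 and 0.474, then 2.15, 2.95 and 13.9. All knockout libraries were higher, and knockout replicate 3 held most of the reads (log2 change of 4.04 with SE 1.00, edgeR adjusted p = 0.0325). Without knockout replicate 3 the value was 2.72 with an adjusted p of 0.0515, and without wild-type replicate 1, which had a single read, it was 3.51 with 0.10. Without wild-type replicate 2 or 3 it was 4.62 and 4.22 with adjusted p-values of 0.0595 and 0.105, and limma-voom (4.14, adjusted p = 0.0653) and same-version transcripts (3.97, adjusted p = 0.0536) did not call it. Most RAB7B reads in knockout replicate 3 lay on the protein-coding transcripts ENST00000617070.5 (293 reads) and ENST00000623893.1 (106 reads), the same pair as in knockout replicates 1 and 2 (39.3 and 16.7, 62.2 and 18.8). Beside RAB7A it remained minor, with 0.115 ± 0.0908% of summed RAB7 TPM in wild type and 1.86 ± 1.96% in knockout.

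RAB29 and RAB7B lie on the same strand of chromosome 1, 201279 bases apart. Between them the annotation has 3 genes, of which the magnesium transporter gene SLC41A1 was tested and called higher (0.42, edgeR adjusted p = 0.0325), while PM20D1 was at 0 and SLC26A9 was under the read filter. On the far side of RAB29, NUCKS1 was lower (-0.50, adjusted p = 0.0088) and SLC45A3 was higher (1.43, adjusted p = 0.0221), so the called genes of this stretch do not all go one way. Past RAB7B, RHEX was under the read filter, and its means were 0.121 and 4.75 CPM in wild type and knockout.

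Among members that did not pass in this compartment, RAB38, which serves lysosome-related organelles, had the largest value (0.83, SE 0.37, adjusted p = 0.153), with knockout replicate 2 at 3.38 CPM and knockout replicate 3 at 1.37 CPM inside the wild-type range of 1.02 to 1.48 CPM. RAB24, linked to autophagy, stood apart at 49.1, 46.0 and 38.2 CPM in wild type and 53.5, 53.2 and 50.0 CPM in knockout (0.23, adjusted p = 0.145), and it shares 926 exon bases with MXD3 on the same strand. RAB7A, RAB9A and RAB12 differed by 0.06, 0.17 and -0.06.

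**Figure D4:**
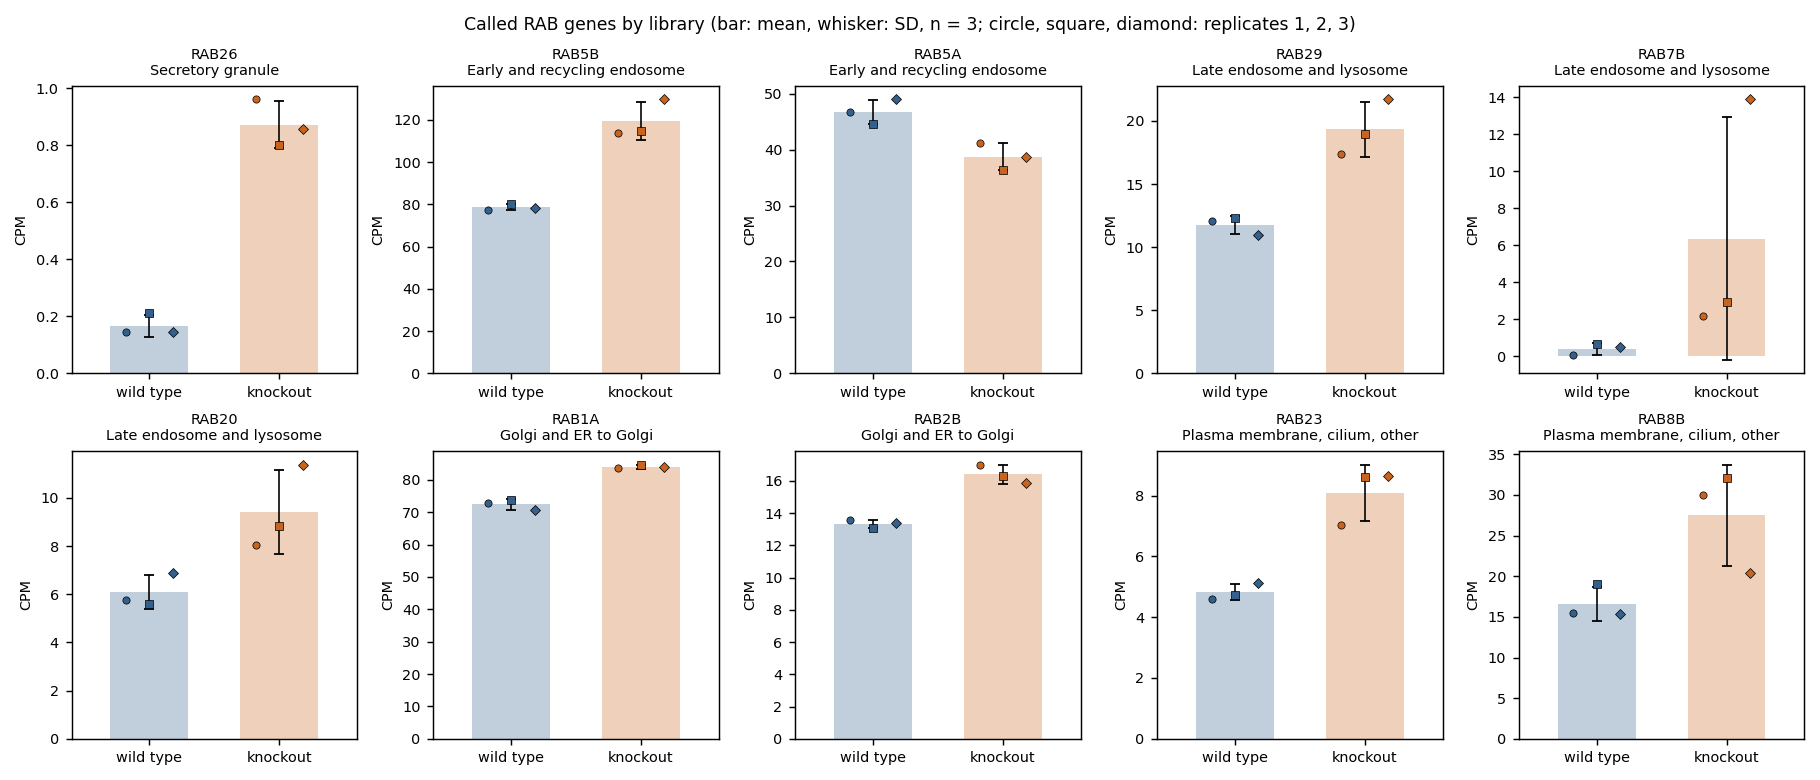
CPM of the 10 called RAB genes in each library, with bars for the mean of 3 libraries, whiskers for the SD and each panel on its own axis with bars drawn from 0. The groups do not overlap in any panel, and the whisker of RAB7B in knockout spans more than its mean because 1 library reached 13.9 CPM.

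The Golgi RABs that rose did so by small steps. Of the 12 tested, 2 were called higher and none lower (16.7%, beside 21.1% of all genes). RAB1A and RAB1B govern transport from the endoplasmic reticulum to the Golgi, and RAB2A and RAB2B act at the Golgi itself. RAB1A (ENSG00000138069.17, chromosome 2, 65070696 to 65130331, minus strand) had 72.9, 73.8 and 70.7 CPM in wild type and 83.6, 84.7 and 83.9 CPM in knockout. Both groups were tight and did not overlap (log2 change of 0.21 with SE 0.05, edgeR adjusted p = 0.035). RAB2B (ENSG00000129472.14, chromosome 14, 21459020 to 21476973, minus strand) had 13.6, 13.1 and 13.4 CPM in wild type and 17.0, 16.3 and 15.9 CPM in knockout (0.30, SE 0.08, adjusted p = 0.0464). RAB1B had 122, 137 and 127 CPM in wild type and 149, 146 and 150.5 CPM in knockout, the same size of difference as RAB1A, and did not pass (0.21, SE 0.06, adjusted p = 0.062). RAB1A missed the threshold without any 1 library (adjusted p 0.0505 to 0.146) and in 3 further alternatives, and so did RAB2B without any 1 library (0.0566 to 0.148) and in 6 further. With same-version transcripts alone RAB2B was at -0.29 (adjusted p = 0.726). RAB1A shares 757 exon bases with CEP68 on the opposite strand, which was called lower (-0.29, adjusted p = 0.0338), and RAB2B shares 124 with TOX4 (-0.07).

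RAB43, a Golgi RAB, is a case where the assignment of reads decides the value. RAB43 alone had 1.66, 12.0 and 5.50 CPM in wild type and 20.1, 16.4 and 2.37 CPM in knockout, and the groups overlapped widely (1.02, SE 0.86, adjusted p = 0.433). It shares 3956 exon bases with the read-through gene ISY1-RAB43 on the same strand. The sum of both was 22.8, 18.3 and 22.3 CPM in wild type and 33.4, 32.2 and 37.8 CPM in knockout, and the groups did not overlap. With the genes merged, an alternative chosen after seeing the data, the fit gave 0.70 (SE 0.11, edgeR adjusted p = 0.0112). With the effective length offset RAB43 alone gave 0.62 (adjusted p = 0.0444).

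For RAB6A and RAB6B, which direct transport within and out of the Golgi, the shares of TPM stood apart between the groups and the sum did not. Such shares were not tested, and no background over other paralogs was taken. RAB6B supplied 5.09, 5.44 and 7.62% of RAB6 TPM in wild type and 8.34, 9.09 and 12.4% in knockout, without overlap, while the sum of the family overlapped (96.6 ± 13.0 and 89.2 ± 7.97 CPM). Neither gene passed, with log2 fold changes of 0.69 for RAB6B (adjusted p = 0.264) and -0.17 for RAB6A (adjusted p = 0.294). RAB6B shares 381 exon bases with SRPRB on the opposite strand. RAB30 had a fitted 1.04 (SE 0.36, adjusted p = 0.0819), and without knockout replicate 3 it was 1.27 with an adjusted p of 0.0451. Leaving out any other library, RAB30 missed the threshold (edgeR adjusted p 0.122 to 0.233).

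At the plasma membrane and the cilium, RAB23 and RAB8B rose and none of the 8 tested members fell past the threshold. The share called was 25%, beside 21.1% of all genes. RAB23, a brake on Hedgehog signalling at the cilium (ENSG00000112210.11, chromosome 6, 57186992 to 57222314, minus strand), had 4.61, 4.74 and 5.14 CPM in wild type and 7.04, 8.62 and 8.64 CPM in knockout (log2 change of 0.74 with SE 0.15, edgeR adjusted p = 0.0186). RAB8B, the minor partner of RAB8A (ENSG00000166128.12, chromosome 15, 63189469 to 63267782, plus strand), had 15.5, 19.0 and 15.4 CPM in wild type and 30.0, 32.1 and 20.4 CPM in knockout. Knockout replicate 3 lay close to wild-type replicate 2, and the groups did not overlap (0.72, SE 0.18, adjusted p = 0.0347). RAB23 shares 2842 exon bases with BAG2 on the opposite strand, which held 5211 reads against 1076 and did not pass (0.17, adjusted p = 0.557). RAB23 was not called when the fit left out wild-type replicate 1 (0.71, adjusted p = 0.084) or 3 (0.79, adjusted p = 0.0634), or used same-version transcripts (1.10, adjusted p = 0.0756). RAB8B was not called without these (0.67 with 0.13 and 0.67 with 0.123) or without knockout replicates 1 (0.66 with 0.0978) or 2 (0.60 with 0.0901), with the effective length offset (0.55, adjusted p = 0.185) or with same-version transcripts (0.50, adjusted p = 0.475).

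RAB8A, with 347, 346 and 339 CPM in wild type and 376, 414 and 376.5 CPM in knockout, stood apart but did not pass (0.18, SE 0.06, edgeR adjusted p = 0.0817). It shares 207 exon bases with HSH2D, which held 112660 reads against its 60956. The sum of both overlapped between the groups, but most of that sum is HSH2D, so it says little about RAB8A. RAB40C, a RAB with a SOCS box that joins ubiquitin ligases, was apart as well (0.40, SE 0.12, adjusted p = 0.0551), averaging 23.2 ± 0.874 CPM before the edit and 30.7 ± 4.73 CPM after it. DESeq2 called both (adjusted p = 0.0435 for RAB8A and 0.0271 for RAB40C) and also RAB1B (0.0333). Library size alone and a minimum of 50 reads in 3 libraries called RAB40C and RAB1B as well, and not RAB8A. With same-version transcripts RAB40C was at -0.16 (edgeR adjusted p = 0.885) and RAB1B at 0.08 (0.675). The effective length offset gave 0.08 for RAB8A (edgeR adjusted p = 0.635). RAB28, a cilium RAB, was the other member whose knockout libraries were all lower, at 27.4, 26.9 and 28.1 CPM and then 26.5, 20.6 and 23.3 CPM (-0.23, adjusted p = 0.152).

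The 161 listed genes that load, switch and read RABs moved in both directions. Of 9 genes for prenylation and membrane delivery, GDI2, which extracts inactive RABs from membranes, was lower in knockout. It had 520, 489 and 562 CPM in wild type and 427, 382 and 438 CPM in knockout (log2 change of -0.33 with SE 0.08, edgeR adjusted p = 0.0302). The other 8 did not pass, and the median of the list was -0.13. Of 37 tested GEFs 7 rose and 3 fell (median 0.06). CCZ1 and CCZ1B, near-identical copies of a subunit of the RAB7 GEF, fell by 0.58 and by 0.57 (adjusted p = 0.0081 and 0.00997), from 158 to 106 CPM and from 81.2 to 54.5 CPM, and how reads divide between them is uncertain. Of 35 tested GAPs 7 rose and 2 fell (median 0.08), among them TBC1D13, a GAP of RAB35 (0.66, adjusted p = 0.0106), SGSM2, a GAP of RAB32 and RAB38 (0.53, adjusted p = 0.0081), and TBC1D25, linked to autophagy (0.40, adjusted p = 0.0125).

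Of 15 tested effectors listed for granules and exocytosis, a list not confined to effectors of granule RABs, 3 rose and none fell (median 0.12). These were MICAL1, an actin oxidase (135 ± 14.4 to 207 ± 7.03 CPM, log2 fold change 0.61, edgeR adjusted p = 0.0096), EHBP1L1 (0.45, adjusted p = 0.0226) and UNC13D, the priming factor of cytotoxic and secretory granules (0.33, adjusted p = 0.0252). Of 17 tested early and recycling endosome effectors 2 rose and 2 fell (median -0.03). RAB11FIP2, which links RAB11 to the motor myosin Vb, had 49.2, 41.4 and 49.9 CPM in wild type and 23.1, 20.6 and 20.6 CPM in knockout, a clear separation (-1.13, SE 0.10, adjusted p = 0.0073). PIK3R4, a subunit of the VPS34 complex, rose by 0.58 (adjusted p = 0.0087) and the adaptor gene APPL1 fell by 0.32 (adjusted p = 0.0457).

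Of 19 tested late endosome and lysosome effectors 5 rose and 2 fell (median 0.06). The kinase gene LRRK1, a RAB7A kinase, went up from 71.6 ± 2.77 to 104.5 ± 1.04 CPM (0.55, SE 0.06, edgeR adjusted p = 0.008). FYCO1 and OSBPL1A, which set the direction of RAB7 vesicles on microtubules, fell by 0.41 and by 0.46 (adjusted p = 0.0145 and 0.019). Of 17 Golgi effectors 5 rose and none fell (median 0.09), among them the dynein adaptor gene BICD2 of RAB6 (0.68, SE 0.08, adjusted p = 0.0081) and the tethers GORASP1 (0.63, adjusted p = 0.0198) and GOLGA2 (0.27, adjusted p = 0.0301). Shares of called genes in these lists ran from 11.1% to 36.8%, beside the 21.1% of all genes, and no list was tested as a set.

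**Figure D5:**
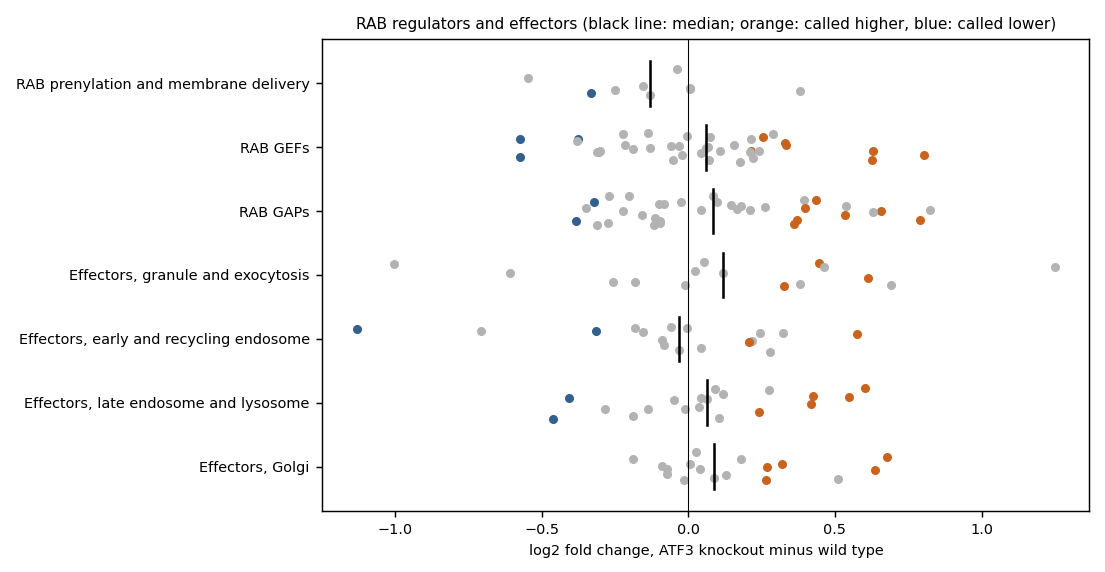
Log2 fold change, knockout minus wild type, of each tested gene in 7 lists of RAB regulators and effectors, with black lines for medians and colours for genes called higher or lower. The medians lie between -0.13 and 0.12, and RAB11FIP2 (-1.13) is the lowest point.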

How the data were processed

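Polyadenylated RNA of 6 EoL-1 libraries was measured, prepared with a stranded Illumina mRNA kit per the labels' protocols. The authors deposited a Salmon table per library with estimated counts, TPM, length and effective length of 177456 transcripts, per the file headers. The submitters' processing notes list FastQC 0.11.9, Salmon 1.6.0 and the build hg38. Not given in the sources used here are the transcriptome release, the library type and any bias option. If strand was not used, reads may be shared by genes overlapping on opposite strands. Effective lengths were equal in all libraries, so the deposited lengths carry no correction for a single library. Of the deposited estimated counts above 0, 92.7% were not whole (tolerance 0.001), and such estimates can move reads between similar transcripts.

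Transcripts were joined to GENCODE 29 genes of GRCh38 by identifier without version. Of these 167027 matched, 155671 with the same version, and 10429 without a gene (3.58 to 3.82% of reads) were left out. Estimated counts were summed per gene and rounded. The quasi-likelihood test of edgeR 4.0.16 (R 4.3.3) was fitted to all 6 libraries on the group alone, with TMM factors, filterByExpr (10 reads) and p-values adjusted after Benjamini and Hochberg over 13131 genes, called at 0.05. CPM are TMM-scaled. The deposited TPM values, without TMM scaling, were summed per gene and used for levels, shares and sums, never in a test. The biological coefficient of variation was 16.8%. The fit was tested on simulated data.

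Alternatives were DESeq2 1.42.0, limma-voom 3.58.1, other scaling and filters, an effective length offset, same-version transcripts, a replicate block and leaving out each library. Members, compartments and lists were chosen with earlier results of these data known. Each RAB gene was assigned 1 main compartment from general knowledge. The text names every called RAB gene, the most abundant member per compartment, members under the filter and up to 3 called genes per list with the smallest p. A gene that this rule names is not reported here. Other RAB genes are named after their values were seen. Promoters are RefSeq's (50 of 63 members matched by symbol, entry nearest to the most read transcript). Precision is limited by 3 libraries per group.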

Additional observations from a re-analysis of the deposited data

How the results depend on the processing

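Of the results followed, each tested RAB gene, ATF3 and the counts of calls, RAB26 lost its call in 1 of 17 alternatives and RAB5B in 2 (RAB26 was untested in 1 of them, at 50 reads, and RAB20 in 1, with same-version transcripts), RAB23 and RAB29 in 3, RAB7B and RAB8B in 6, RAB1A and RAB20 in 9, RAB5A in 11 and RAB2B in 12. The sole called gene to reverse was RAB2B, at -0.29 with same-version transcripts alone. The cause was not tested. The effective length offset called 722 genes higher and 661 lower, with 6 RAB genes higher and 0 lower. Same-version transcripts called 514 and 507, with 3 RAB genes higher and 0 lower, and gave ATF3 -0.81 (edgeR adjusted p = 0.112). Scaling by library size alone and testing without a low-count filter each left 0 RAB genes lower, with 11 and 6 higher. Leaving out 1 library gave 0 (without wild-type replicate 1) to 1370 genes higher and 0 to 1388 lower, 0 to 7 RAB genes higher and 0 to 1 lower, and ATF3 at -2.03 to -1.58, with an adjusted p of 0.0527 when wild-type replicate 1 was left out. DESeq2 called 12 RAB genes higher and 1 lower, limma-voom 8 and 1, and the merged fit, chosen after seeing the data, 10 and 1. The median log2 fold change of RAB genes ran from 0.13 to 0.22 over all alternatives. Same-numbered libraries of the groups had correlations of their deviations from the group means of -0.09, 0.11 and 0.20, so the numbers were not taken to pair them. With the replicate block 7 RAB genes were higher and 0 lower, and 1225 and 1093 genes in all. Below about 10 reads per library, as for RAB26 in wild type and the 12 untested members, counting error limits any statement.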
